A study of Mus musculus with 5 samples.

Results

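The poly(A)-binding protein genes Pabpc1, Pabpc4 and Pabpn1, the PABP-interacting protein genes Paip1, Paip2 and Paip2b, and the La-related protein genes Larp1, Larp4 and Larp4b were examined for sites crosslinked to PABPC1 and to CCT3. Members were the 9 genes of these names, and their sites were the rows of 3 peak lists that name one of them as the nearest gene. These rows numbered 65 of 43658, made up of 42 of 14092 PABPC1 peaks, 9 of 10916 CCT3 peaks and 14 of 18650 CCT3-2 peaks. Because the listed gene is the one with the nearest transcript start, each peak was also placed in the RefSeq gene span that holds its midpoint.

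The series holds 5 eCLIP samples of GC-2spd(ts), a single mouse cell line labelled as spermatocyte cells, with no treatment or genotype given. They are 1 PABPC1 immunoprecipitation, 2 CCT3 immunoprecipitations titled CCT3 and CCT3-2, 1 PABPC1 input and 1 CCT3 input. In eCLIP, RNA crosslinked to a protein is recovered with an antibody, shortened by RNase and sequenced beside an input library of the lysate. The CCT3 and CCT3-2 samples carry the same library name, so they are not shown to be separate samples, and no difference given here has a replicate check or a test. Read totals were not used here, the depth behind each peak is unknown, and a gene without a listed peak is not shown to be unbound. Of 13 testis cell markers, 11 were named in the PABPC1 list with 71 peaks in all, and 1, Sox9, in the CCT3 list with 1 peak and in the CCT3-2 list with 6. The PABPC1 list named the spermatocyte genes Dazl, Sycp1, Sycp3 and Stra8 but not Piwil1 or Ddx4, and it also named all 3 spermatid, both Leydig and both Sertoli markers. None of the 6 spermatocyte markers was named in either CCT3 list. Over all protein-coding genes the share named was 22.5% in PABPC1, 9.14% in CCT3 and 12.0% in CCT3-2. Beside these shares, none of 6 in the CCT3 lists is not shown to be unusual. What part the difference in marker counts between the lists has in the results below was not tested.

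Cytoplasmic poly(A)-binding protein coats the poly(A) tail and binds the initiation factor eIF4G at the cap, which favours translation and protects the mRNA. Paip1 stimulates translation through PABP, whereas Paip2 and Paip2b displace PABP from poly(A) and repress translation. Larp1 binds mRNAs that start with a terminal oligopyrimidine tract, Larp4 and Larp4b bind PABP and stabilise mRNAs, and Pabpn1 controls tail length in the nucleus. PABPC1 also represses translation of its own mRNA by binding an A-rich stretch of the 5′ UTR, which makes the 5′ end of Pabpc1 the site of interest here.

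By listed name, 6 of the 9 genes had a PABPC1 peak, namely Pabpc1, Paip2, Paip2b, Larp1, Larp4 and Larp4b, against 22.5% of 21896 protein-coding genes. By gene span the count was 7 of 9, against 25.7% of protein-coding genes, and the added gene was Paip1. Pabpc4 and Pabpn1 had no peak in any of the lists by either assignment. CCT3 and CCT3-2 peaks fell in a single member, Larp4b, which is 1 of 9 in each list, against 9.14% of protein-coding genes in CCT3 and 12.0% in CCT3-2. Expression was not measured, so the share of expressed genes with a peak is unknown. By gene span 38 PABPC1 peaks lay in the members, all 38 on the strand of the gene, with 23 in 3′ UTRs, 13 in the promoter class, 2 in other exons and 0 in introns. Over all PABPC1 peaks the shares were 79.9% in 3′ UTRs, 13.2% in the promoter class, 5.36% in other exons and 1.09% in introns. Of the 13 promoter-class peaks, 12 were those of Pabpc1.

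**Figure D1:**
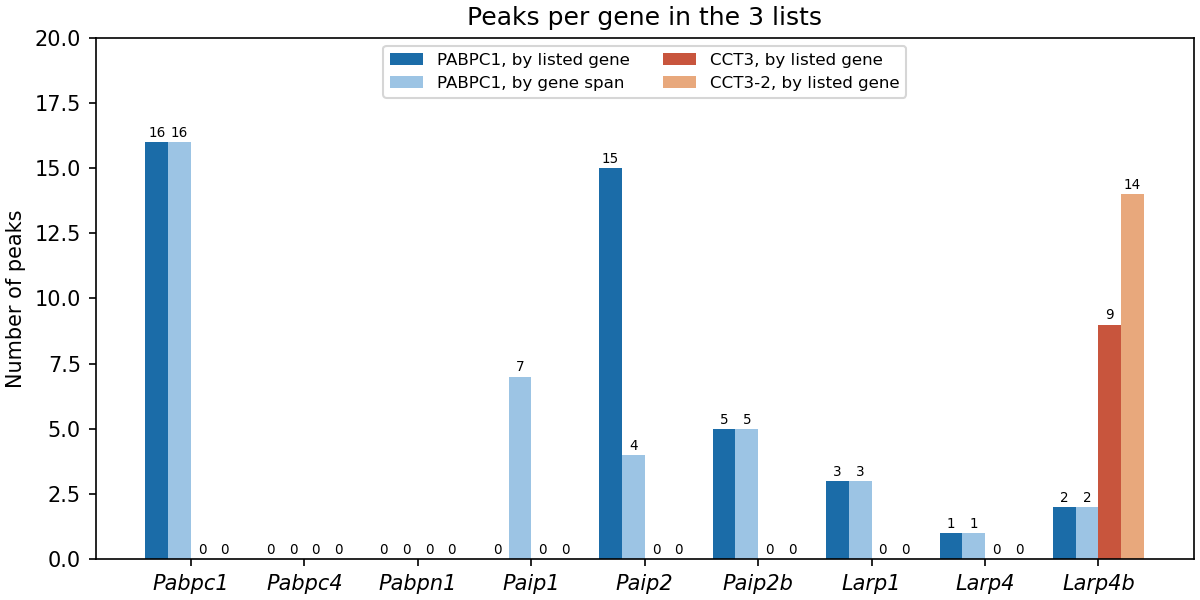
Number of peaks (vertical axis) per gene (horizontal axis), as bars for the PABPC1 list by listed gene and by gene span and for the CCT3 and CCT3-2 lists by listed gene. Pabpc1 had 16 PABPC1 peaks by both assignments, Paip2 had 15 by listed gene and 4 by span, Paip1 had 0 and 7, and Larp4b had 9 CCT3 and 14 CCT3-2 peaks.

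Pabpc1 encodes the immunoprecipitated protein itself and carried the strongest PABPC1 signal of the group, at its 5′ end. Pabpc1 (gene ID 18458) spans 36595658 to 36609581 on chromosome 15 of mm10, on the minus strand. Its 16 PABPC1 peaks placed it at rank 8 of 5289 listed genes by number of peaks and at rank 20 by highest fold. They fell into 12 peaks of the promoter class at the 5′ end and 4 in the 3′ UTR, separated by 12897 bases of genome without a listed Pabpc1 peak. No CCT3 or CCT3-2 peak was listed for Pabpc1.

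The 12 peaks at the 5′ end lay 7 to 158 bases downstream of the listed transcript start at 36608973 on the gene strand. The RefSeq span begins 608 bases further upstream, and no other RefSeq gene lay within 20557 bases of these peaks. No Pabpc1 sequence was used here, so these peaks were not placed on the A-rich stretch. Nor does the promoter class show whether they lie in the 5′ UTR. The 12 peaks formed 2 runs of abutting peaks. The run nearer the start had 5 peaks over 44 bases, 7 to 50 bases from the start, and the other had 7 peaks over 93 bases, 66 to 158 bases from it. A gap of 15 bases separated them, so 137 of 152 bases were covered. The number of peaks follows how the region was divided: joined within 10 bases, the 12 peaks became 2.

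The log2 fold over input was lowest beside the transcript start and highest in the middle of the second run. From the start outward, the first run had log2 folds of 5.03 (36608960 to 36608966), 6.29 (36608945 to 36608959), 7.20 (36608936 to 36608944), 7.25 (36608928 to 36608935) and 7.28 (36608923 to 36608927). The second run began at 7.66 (36608900 to 36608907) and 7.69 (36608880 to 36608899). Its highest log2 fold was 8.94 at 36608867 to 36608879, 94 to 106 bases from the start, a value that 0.255% of all PABPC1 peaks exceeded. The remaining peaks had log2 folds of 8.88 (36608857 to 36608866), 8.68 (36608849 to 36608856), 8.49 (36608841 to 36608848) and 7.93 (36608815 to 36608840). The fold thus stayed at 7.66 or more over all 93 bases of the second run, and every peak of the first run was below every peak of the second. Neighbouring peaks are not independent of each other, and no source used here says how the signal was divided into peaks.

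All 12 peaks had the highest −log10 p that the authors' table gives, 400, which 677 PABPC1 peaks reached. With 2 peaks of its 3′ UTR at that value too, Pabpc1 had 14, the fourth highest number among the 278 genes that reached it, after Slc2a3 with 28, Insl3 with 20 and Rimbp2 with 17. The 12 peaks were 5 to 26 bases wide with a median of 8.5 bases, against a median of 50 bases for all PABPC1 peaks and 34 bases for those at 400. Because the score stops at 400, it does not rank these peaks among themselves.

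**Figure D2:**
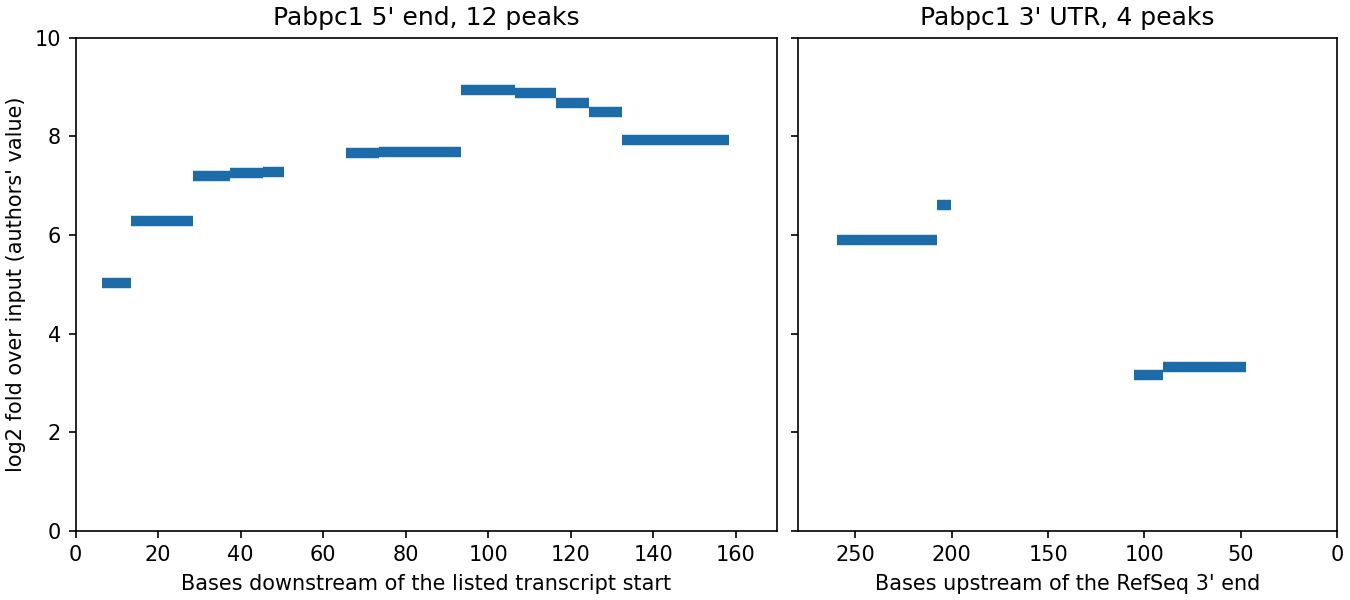
Log2 fold over input (vertical axis, the authors' value) of each PABPC1 peak in Pabpc1, drawn as a bar over the bases it covers, against distance from the listed transcript start (left) and from the RefSeq 3′ end (right). The 12 peaks at the 5′ end climb to 8.94 between 94 and 106 bases from the start, while the 4 peaks in the 3′ UTR lie between 3.17 and 6.62.

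The 3′ UTR of Pabpc1 held 4 PABPC1 peaks, within 48 to 259 bases of the RefSeq 3′ end, with lower folds than the 5′ end. A pair nearest the end had log2 folds of 3.32 (36595706 to 36595748, −log10 p of 50.9) and 3.17 (36595749 to 36595763, −log10 p of 30.96). A second pair, 201 to 259 bases from the end, had log2 folds of 6.62 (36595859 to 36595865) and 5.90 (36595866 to 36595917), both with a −log10 p of 400. The highest log2 fold was 8.94 at the 5′ end and 6.62 in the 3′ UTR, a difference of 2.32 within the same library and with no replicate. Only the lowest 2 of the 12 peaks at the 5′ end, at 5.03 and 6.29, were below the highest peak of the 3′ UTR. Both pairs abut, so joining peaks within 10 bases leaves 2, and 2 of the 4 peaks pass a stricter threshold of log2 fold 4 and −log10 p 5, which all 12 at the 5′ end pass.

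Among the 424 genes whose listed PABPC1 peaks include both classes, the promoter class had the higher top fold in 132 (31.1%), Pabpc1 being 1 of them. The difference of the highest log2 folds, promoter class minus 3′ UTR, was 2.32 for Pabpc1 against a median of −0.63 over the 424 genes, and 7 genes had a larger one. By number of promoter-class peaks Pabpc1 ranked second of 1114 genes, after Hnrnpa2b1 with 22, and by highest fold in that class it ranked 4. The class takes in peaks up to 1000 bases to either side of a listed start, and 23.9% of its 1858 PABPC1 peaks lay upstream of the start. Restricted to peaks on the gene strand, 0 to 200 bases downstream of a listed start that lies within 1000 bases of the RefSeq 5′ end, 348 genes remained with 442 peaks. This restriction was chosen after the values were seen. Of these genes 287 had 1 such peak, and 4 had 5 or more, namely Pabpc1 with 12, Sord with 7, Insl3 with 6 and Spata4 with 5. By bases covered in that window Pabpc1, at 137, was below at least Phkg2 at 175 and Insl3 at 150. Its rank by bases covered over the 348 genes is not given here. The highest log2 fold in the window was 8.94 for Pabpc1, 5.79 for Sord, 7.71 for Insl3 and 6.57 for Spata4, against a median of 3.82 over the 348 genes. Pabpc1 was not the highest by fold in the window, since Mir423, with 3 peaks there, reached 11.4.

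Pabpc4 (gene ID 230721, chromosome 4, 123282303 to 123298925), a second cytoplasmic poly(A)-binding protein gene, had no PABPC1, CCT3 or CCT3-2 peak. A start of the gene is shown because it is rich in A, the base that PABPC1 is known to bind in runs, and has no listed peak over it. RefSeq sequence (GRCm38.p6) was given for 250 bases before to 50 after the start of 7 of the 9 genes, in 8 windows, and Pabpc1 and Paip2 were not among them. The start of the Pabpc4 window is 123282911, which is 608 bases inside the gene span. A 30-base stretch, plus strand, chr4:123282922-123282951, bases 12 to 41 counted from 1 at that window start, holds 23 A, with runs of 6 or more A in capitals.
Pabpc4: gAAAAAAAAAAgcaaaagggAAAAAAAgaa

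A made up 74% of the first 50 bases of Pabpc4, against a median of 22% over all 32851 promoter windows, and 1 window had a higher share. In the 7 other windows of Larp1, Larp4, Larp4b, Pabpn1, Paip1 and Paip2b, A made up 8 to 18% of the first 50 bases and the longest run of A was 2. The motif AAAAAA, read on the gene strand, occurred in the first 50 bases of 300 of the 32851 windows (0.913%). A PABPC1 peak on the same strand overlapped the first 50 bases of 201 windows, and 0 of those held the motif. Beside 0.913% of all windows, 0 of 201 is not shown to be low, and Pabpc1 itself has no window here. These matches describe the letters in the window and say nothing of binding by PABPC1.

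Pabpn1 (gene ID 54196, chromosome 14, 54894143 to 54898927), which encodes the nuclear poly(A)-binding protein, likewise had no peak in any list. Pabpc1 was therefore the only poly(A)-binding protein gene of the 3 with a listed peak.

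Paip1, the gene for a translational activator that binds PABP, had no peak by listed name but 7 PABPC1 peaks inside its span. Paip1 (gene ID 218693) spans 119428331 to 119460323 on chromosome 13, on the plus strand of the peaks. All 7 were annotated as 3′ UTR and listed under 4833420G17Rik, which begins 1692 bases beyond the end of Paip1 and held none of them. From 5′ to 3′ their log2 folds were 4.13, 4.78, 5.68, 6.63, 5.32, 4.99 and 6.76, between 119457047 and 119458180. Their midpoints lay 2173 to 3261 bases before the 3′ end of the gene span, and the first of them was the farthest from the end of all 3′ UTR peaks in the members. With a highest log2 fold of 6.76, exceeded by 2.98% of PABPC1 peaks, Paip1 ranked behind only 2 members by span, Pabpc1 at 8.94 and Larp1 at 7.05.

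Paip2, the gene for a repressor that removes PABP from poly(A), had 15 PABPC1 peaks by listed name, most of which lay in its neighbour Matr3. Paip2 (gene ID 67869) spans 35598610 to 35617186 on chromosome 18, on the plus strand. Of the 15 peaks, 12 lay upstream of that span, between 35588359 and 35591543, inside the span of Matr3 (35562158 to 35592045), and all were annotated as 3′ UTR. Matr3, the gene for the nuclear RNA-binding protein matrin 3, had no peak by listed name. These 12 peaks, 520 to 3674 bases from the 3′ end of Matr3, had a median log2 fold of 4.42, from 3.19 to 6.92. The highest fold listed for Paip2, 6.92 at 35591508 to 35591543, the longest peak, 67 bases at 35590547 to 35590613 with a log2 fold of 4.75, and the most upstream peak, 3.19 at 35588359 to 35588384, are all among them.

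Inside the Paip2 span itself 4 PABPC1 peaks were found, with log2 folds of 3.005 in an exon (35613347 to 35613392), 3.18 and 4.56 in the 3′ UTR (35616334 to 35616360 and 35616374 to 35616423), and 4.39 at 35617030 to 35617106. The last of these, 118 bases from the 3′ end of Paip2, was listed under Slc23a1, which overlaps Paip2 and is on the minus strand in the tables, while the peak is on the plus strand. By span the highest log2 fold of Paip2 was therefore 4.56, against 6.92 by listed name.

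**Figure D3:**
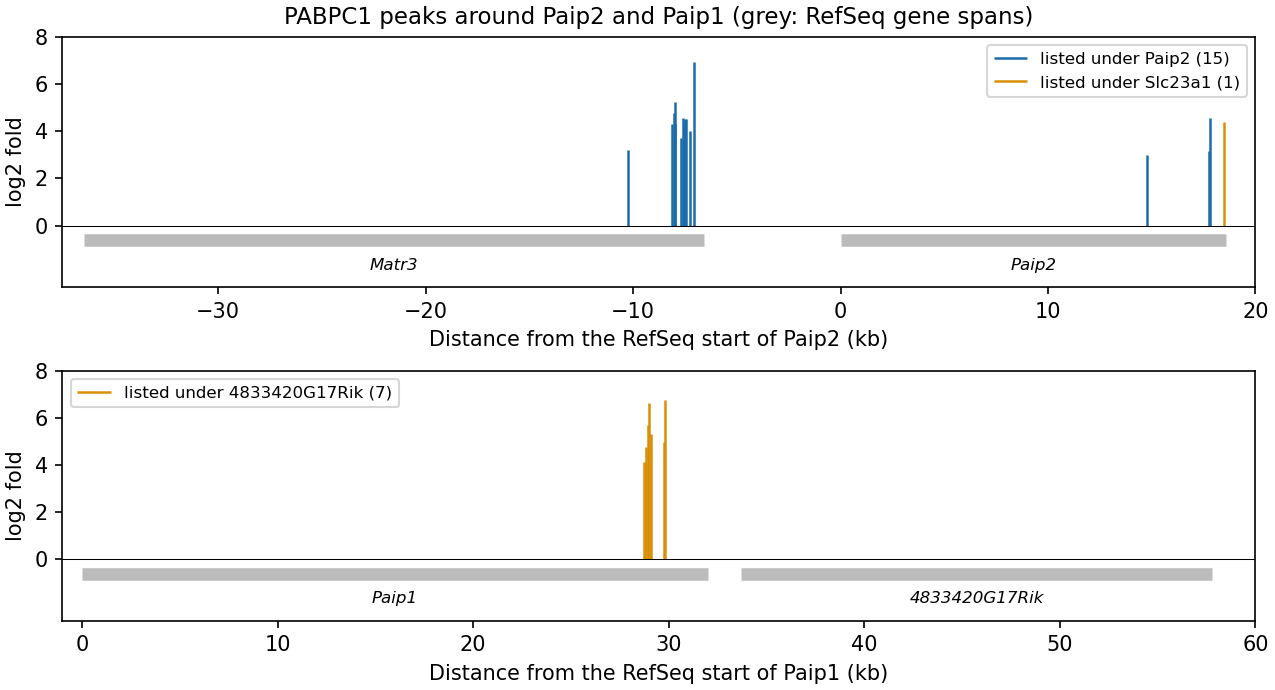
Log2 fold over input (vertical axis) of PABPC1 peaks, drawn as lines at the peak midpoint, against distance in kb from the RefSeq start of Paip2 (top) and Paip1 (bottom), coloured by listed gene, with RefSeq gene spans in grey below. Of 15 peaks listed under Paip2, 12 stand over Matr3, and the 7 peaks listed under 4833420G17Rik stand over the 3′ part of Paip1.

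Paip2b (gene ID 232164, chromosome 6, 83806058 to 83831741, minus strand), the second Paip2 gene, had 5 PABPC1 peaks spread over a longer stretch of the gene. Of its 3 peaks in the 3′ UTR, the log2 folds were 3.66 (83807368 to 83807458), 5.15 (83807794 to 83807805) and 3.45 (83808660 to 83808748). The peak at 83809995 to 83810076, with a log2 fold of 4.93, was put in the promoter class because it lies 122 bases after the start of a short transcript, yet it lay 3977 bases from the 3′ end of the 25684-base span. The remaining peak, in exon 3 of 5 at 83814722 to 83814804, had a log2 fold of 3.72. The promoter class therefore marked the 5′ end of the gene in Pabpc1 and not in Paip2b. The 4 peaks nearer the 3′ end also lie in the span of the long noncoding RNA gene Gm52908. All 5 peaks were on the strand of Paip2b, and their −log10 p ranged from 4.42 to 12.1.

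Larp1, the gene for the terminal oligopyrimidine mRNA-binding protein, had 3 PABPC1 peaks in its 3′ UTR and ranked 184 of 5289 genes by highest fold. Larp1 (gene ID 73158) spans 57973418 to 58062034 on chromosome 11, on the plus strand. The abutting peaks at 58059424 to 58059497 and 58059498 to 58059516 had log2 folds of 7.05 and 6.97, with −log10 p of 400 and 42.1, with midpoints 2574 and 2527 bases from the 3′ end. The third peak, at 58061984 to 58062028, was 28 bases from the end and had a log2 fold of 3.87. In Larp1 the higher folds thus lay far from the end of the span and the lowest nearest to it. In Pabpc1 too the pair nearest the end had the lowest folds, but its higher pair was only 201 to 259 bases from the end. In Paip1, Paip2, Paip2b and Larp4b the lowest 3′ UTR fold was instead in the peak farthest from the end. These genes do not show a gradient by that alone. Larp4b had only 2 such peaks, at 3.69 and 3.83. In Paip2b the log2 fold was 3.66 nearest the end, 5.15 in the middle and 3.45 farthest from it.

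Larp4 and Larp4b, paralogs whose proteins bind PABP, had few and low PABPC1 peaks. Larp4 (gene ID 207214, chromosome 15, 99970065 to 100016358) had 1 peak at 100016190 to 100016229, 149 bases from its 3′ end, where the log2 fold was 3.55 and −log10 p was 4.64. Larp4b (gene ID 217980, chromosome 13, 9093653 to 9174451) had 2 peaks in the 3′ UTR, with log2 folds of 3.69 (9172042 to 9172081) and 3.83 (9172672 to 9172709). Their −log10 p values of 3.56 and 5.71 are near the lower limit of 3 that the list keeps. None of these 3 peaks passes the stricter threshold.

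Across the 7 genes with PABPC1 peaks in the 3′ UTR by span, 7 of 23 such peaks were centred less than 500 bases from the gene's 3′ end. These 7 belonged to Pabpc1 with 4, and Paip2, Larp1 and Larp4 with 1 each, whereas Paip1, Paip2b and Larp4b had 3′ UTR peaks only farther away. The 4 of Pabpc1 become 2 when joined within 10 bases. The share over all PABPC1 peaks in 3′ UTRs is not given here, so 7 of 23 is not shown to be high or low. The distances are to the end of the RefSeq span, which need not be the end of the transcript used in these cells.

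**Figure D4:**
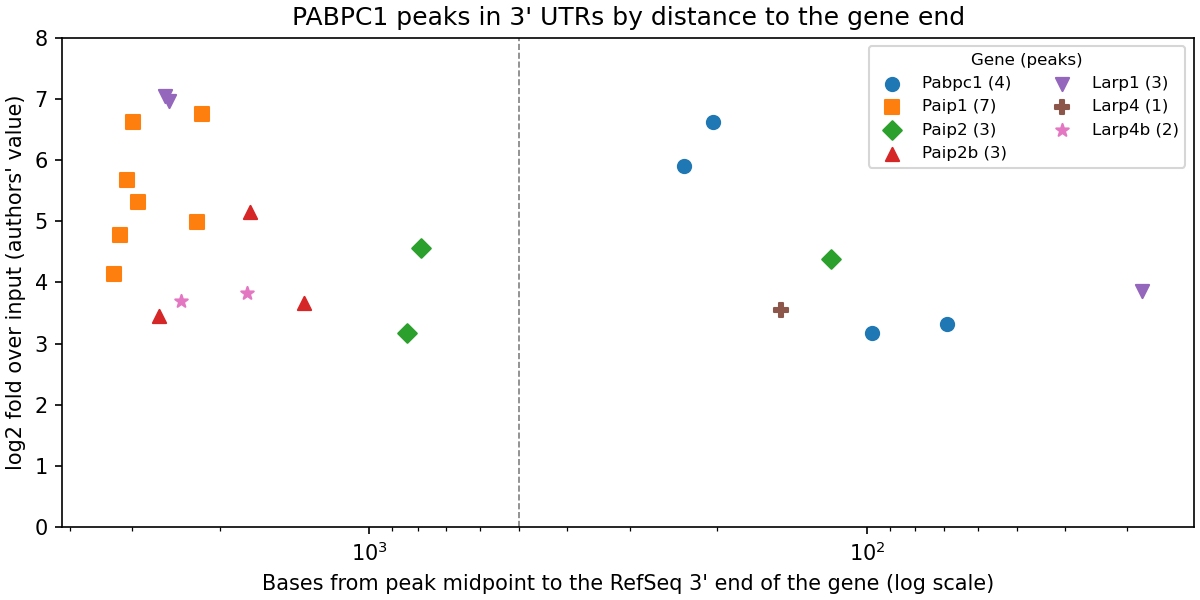
Log2 fold over input (vertical axis) of the 23 PABPC1 peaks in 3′ UTRs of the members, by gene span, against bases from the peak midpoint to the RefSeq 3′ end (horizontal axis, log scale, 3′ end to the right). The dashed line marks 500 bases, with 7 peaks to its right and the 7 Paip1 peaks and the 2 highest Larp1 peaks far to its left.

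CCT3 peaks in this group lay in a single intron of Larp4b. The CCT3 list had 9 peaks, all in intron 3 of 17, between 9127940 and 9130958, a stretch of 3019 bases that makes up 3.74% of the gene span. The CCT3-2 list had 14, in the same intron, between 9127951 and 9131016, and all 14 were on the plus strand, that of the gene, whereas the CCT3 table gives no strand. The peaks covered 485 of those 3019 bases in CCT3 (16.1%) and 684 of 3066 in CCT3-2. The first CCT3 peak lay 34287 bases from the start of the RefSeq span, and 41083 bases separated the last one from the first PABPC1 peak, so no CCT3 or CCT3-2 peak overlapped a PABPC1 peak. How often CCT3 and PABPC1 peaks overlap over the whole lists is not given here, so this absence is not a trait of Larp4b.

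In the CCT3 list the Larp4b log2 folds ranged from 3.09 to 5.03 with a median of 3.97, and −log10 p ranged from 3.71 to 11.8. From 5′ to 3′ they were 3.62, 5.03, 4.07, 3.09, 3.72, 3.59, 4.48, 3.97 and 4.95, with no steady trend along the intron. The highest fold, 5.03, was at 9128162 to 9128239, and the longest peak, 94 bases at 9130865 to 9130958, had 4.95. In the CCT3-2 list the log2 folds ranged from 2.83 to 4.87 with a median of 3.87, and 13 of the 14 peaks had both values at 3 or more. At the stricter threshold 4 CCT3 peaks remained.

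The CCT3 and CCT3-2 lists gave much the same positions in Larp4b. The share of all CCT3 peaks that overlap a CCT3-2 peak is not given here, and the samples carry the same library name. The closeness is therefore not shown to be particular to Larp4b. Of 9 CCT3 peaks, 8 overlapped a CCT3-2 peak by at least 1 base, which is 88.9%, and 9 of 14 CCT3-2 peaks, or 64.3%, overlapped a CCT3 peak. The exception in CCT3 was 9129919 to 9129951, with a log2 fold of 3.59. In the 9 overlapping pairs the log2 folds, CCT3 minus CCT3-2, differed by a median of 0.08, and 6 of the pairs were within 0.5. The widest difference, 1.54, came from a 94-base CCT3 peak with 4.95 that CCT3-2 divides into peaks with 3.41 and 4.87. Larp4b ranked 321 of 2210 genes by number of CCT3 peaks. Of 388 genes with 9 or more CCT3 peaks, 55 had all of them in introns, and in 15 of these, Larp4b included, the peaks extended over 3019 bases or less.

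**Figure D5:**
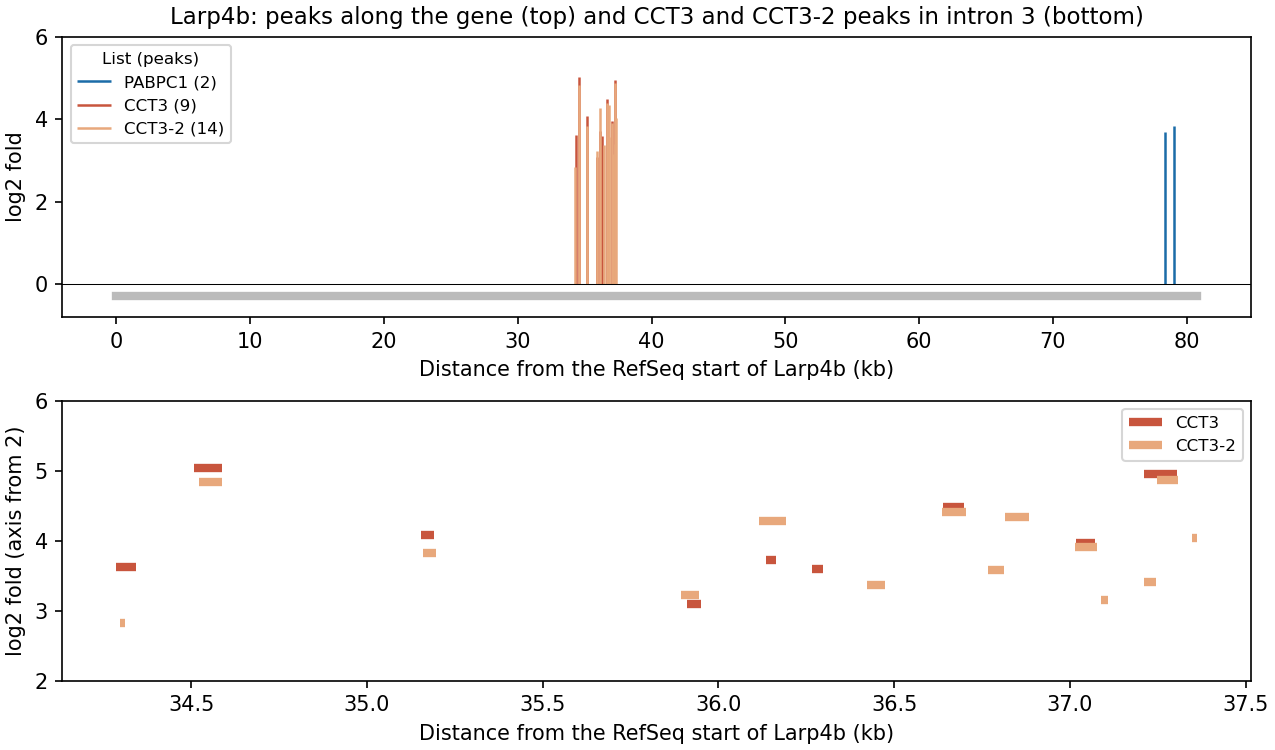
Log2 fold over input (vertical axis) of Larp4b peaks against distance in kb from the RefSeq start of the gene, with PABPC1, CCT3 and CCT3-2 peaks along the whole gene (top, gene span in grey) and the CCT3 and CCT3-2 peaks of intron 3 as bars over the bases they cover (bottom, axis starting at 2). The 9 CCT3 and 14 CCT3-2 peaks cluster between 34 and 38 kb, and the 2 PABPC1 peaks lie near the 3′ end.

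Other genes of the poly(A) and cap-binding pathway were read from a list of 44. By listed name 28 of them (63.6%) were in the PABPC1 list, 7 (15.9%) in the CCT3 list and 8 (18.2%) in the CCT3-2 list, to be read beside the shares of protein-coding genes above. At the stricter threshold these counts were 17 in PABPC1 and 3 in CCT3. The 28 include Pabpc1l and Igf2bp2, whose listed PABPC1 peaks all lay outside their spans. By gene span 30 of the 44 (68.2%) had a PABPC1 peak, against 25.7% of protein-coding genes. The median highest PABPC1 log2 fold was 6.04 over the 6 listed members and 4.39 over the 28 genes, against 4.69 over all listed genes, but the value of 6.04 counts for Paip2 the peak of 6.92 that lies in Matr3. By gene span the median was 4.85 over the same 6 members, 5.15 over the 7 members with a peak and 4.44 over 30 pathway genes, against 4.69 over 5627 protein-coding genes. These are descriptions with no test. Of the 91 PABPC1 peaks listed under these genes, 76 were in 3′ UTRs and 15 in the promoter class, to be read beside 79.9% and 13.2% of all PABPC1 peaks. Some of the 91 lay outside the span of the listed gene, among them all 8 of Pabpc1l, all 7 of Igf2bp2 and 2 of Eif4g3.

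The highest PABPC1 log2 folds of the pathway list were 9.38 for Eif4g3, a scaffold gene of the cap-binding complex, 7.38 for Tut4, which uridylates RNA 3′ ends, 7.00 for Pabpc1l, an oocyte poly(A)-binding protein gene, 5.93 for Ssb, the La protein gene, 5.61 for Zc3h14, a nuclear poly(A)-binding protein gene, and 5.46 for Papola, a poly(A) polymerase gene. The Pabpc1l value is not one of that gene: all 8 peaks listed for it lay outside its span, in Tomm34 or Ywhab. Likewise the 7 peaks listed for Igf2bp2 lay in Senp2. For Eif4g3 7 of 9 listed peaks were within its span, including the highest.

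By highest fold, CCT3 peaks of the pathway list were led by Pan3, a subunit of a poly(A) deadenylase that PABP recruits, with 6 peaks up to a log2 fold of 7.15 in CCT3 and 11 up to 7.30 in CCT3-2, all in the 3′ UTR. Pan3 had 1 PABPC1 peak, at 4.00. Usp10, a deubiquitinase gene, had 6 CCT3 peaks up to 3.98 and 6 CCT3-2 peaks up to 3.91, and Gspt2, a translation termination factor gene, had 2 up to 4.41 and 5 up to 4.83. Neither gene had a PABPC1 peak.

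Lower CCT3 counts were found for Tut7, the paralog of Tut4, with 2 peaks up to 3.98, against 4 up to 3.88 in CCT3-2, for Tut4 with 1 at 3.55, against 2 up to 3.71, and for Tob1, an antiproliferative adaptor of deadenylation, with 1 at 3.27, against 1 at 3.49. Igf2bp3 had no CCT3 peak and 3 CCT3-2 peaks up to 3.63. Besides Larp4b, with 2 PABPC1 and 9 CCT3 peaks, 4 pathway genes were named in both of these lists, among them Tob1, Pan3 and Tut4.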

How the data were processed

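The 3 peak tables are the authors' files. Each row gives a peak, its genomic feature and the gene of the nearest transcript start. The deposited −log10 p values are the authors' and stop at 400. The deposited log2 fold values are the authors', named in the header of the CCT3 table and taken as immunoprecipitation over input. In the other tables both columns lack names and were identified by their ranges. The submitters' processing notes name bcl2fastq 2.20 and mm10. Aligner, peak caller, annotation tool and duplicate handling remain not given in the sources used here. Fold and −log10 p of at least 3 hold for every PABPC1 and CCT3 peak but not for CCT3-2.

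Peaks were counted by listed name and by RefSeq span (GRCm38.p6, the same build) holding the midpoint. The span count ignored strand, so it can include peaks on the strand opposite to the gene. Peaks abut where one starts at the base after another. Python 3.11.15, numpy 2.4.6, pandas 2.3.3 and matplotlib 3.10.9 were used. Counting was tested on simulated peaks of 200 genes, some of them given another gene's name on purpose. For all 200 genes the span count found the simulated peaks, and the count by listed name returned only those under the gene's own name. The test checks the counting and not whether a listed name is right. Promoter sequences are RefSeq's. No genome sequence was used, so the planned search for A runs inside member peaks was not run.

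Members, lists and alternatives were chosen with earlier results of these data known. The text names all members, the 6 pathway genes with the highest PABPC1 fold and those with a CCT3 or CCT3-2 peak. Igf2bp2, Eif4a2, Eif4g1, neighbouring genes and genes named in rankings were chosen after their values were seen. Some genes that this rule would name are not reported here.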

Additional observations from a re-analysis of the deposited data

How the results depend on the processing

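Of 34 alternative values for 10 counts, 26 stayed within 1.5 times the main count. Joining peaks within 10 bases gave 24 PABPC1 peaks over the members in place of 42, and left 2 of the 12 Pabpc1 promoter-class peaks and 2 of the 4 in its 3′ UTR, since abutting peaks become 1. At a log2 fold of at least 4 and a −log10 p of at least 5, fewer peaks pass. By listed name 4 members in place of 6 then had a PABPC1 peak, with 28 peaks in place of 42. The share of all protein-coding genes at this threshold is not given here. It also left 2 Pabpc1 3′ UTR peaks, 4 CCT3 peaks of the members, and 17 pathway genes in PABPC1 and 3 in CCT3. The CCT3-2 list in place of CCT3 gave 14 peaks over the members, and 13 at the threshold of the other lists, and leaving out listed peaks beyond the member's span gave 30 PABPC1 peaks. The last 2 settings were chosen after seeing the data. No paired analysis was possible because counts from single peak lists were described without any test. Peak lists without read depth limit every count.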

Other observations

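Eif4a2, an RNA helicase gene of the cap-binding complex, had 0 listed PABPC1 peaks and 4 in its span, with log2 folds of 4.42 to 5.32. All 4 were listed under Rfc4, whose span overlaps that of Eif4a2. The 4 peaks are spread over both strands, so not all of them lie on the strand of Eif4a2. Eif4g1 had 1 listed peak at 4.00 and 4 more in its span, up to 4.81, listed under Fam131a.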
